A study of Mus musculus with 32 samples.

Results

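Genes of bile acid synthesis and transport were followed in the livers of 32 mice. The genes were chosen by symbol: Cyp7a1, Cyp8b1, Cyp27a1, Cyp7b1, Slc10a1, Abcb11, Nr0b2, Nr1h4, Baat and Slc27a5. Of these 10 genes, 8 had a probe set (a group of short probes for 1 transcript) that the platform annotation assigns to that symbol alone. They were represented by 11 of the 12422 probe sets that are not array controls, and by 8 of the 8251 genes on the array. Cyp27a1 and Abcb11 had no such probe set in the annotation used here and were not analysed here.

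The mice were males of the B6C3F1 strain, housed singly from 5 months of age, fasted for 48 hours and killed at 22 months, and each of 8 groups held 4 mice with 1 array each. LTCR mice ate 52.2 kcal per week of an enriched restricted diet from 5 months, about 40% less than controls. CR8 mice were moved at 20 months to the restricted diet, 77 kcal per week for 2 weeks and then 52.2 kcal per week for 6 weeks. MET, GLIP, GM, ROS and SOY mice ate the control diet with metformin (a biguanide that lowers blood glucose), glipizide (which acts on beta cells to release insulin), the 2 drugs combined, rosiglitazone (an agonist of PPAR gamma) or a soy isoflavone extract for 8 weeks from 20 months. CON mice ate 93 kcal per week of the control diet throughout. Doses are not given in the sources used here. The long fast was shared by every group, so all levels are those of fasted livers.

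Bile acids are made from cholesterol in hepatocytes, either by the classical pathway, which starts with Cyp7a1, or by an alternative pathway that runs through oxysterols and Cyp7b1. The products are activated to coenzyme A esters, joined to taurine or glycine, exported into bile and taken up again from portal blood. Bile acids bind the nuclear receptor FXR, encoded by Nr1h4, which induces the repressor SHP, encoded by Nr0b2, and so lowers transcription of the synthetic enzymes.

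The deposited values were scaled intensities, and differences were tested with limma on log2(intensity + 27) in 1 fit over all 32 arrays, with p-values adjusted by the Benjamini-Hochberg method over the 7357 probe sets bright enough to test and a threshold of 0.05. Each fold or log2 difference below is on that scale. Of the member probe sets, 10 were tested. The remaining one, another probe set of Slc10a1, was dim, with group means between 42.4 and 73.1, and received no test. The hepatocyte marker list was bright in every group, with 9 of its 11 genes tested and summed intensities between 132657 and 170060 per array. In 5 arrays (CR8 1, CR8 2, ROS 4, SOY 3 and CON 3) skeletal muscle transcripts were high, and the values without them are given where a call or a value depended on them. In whole liver, fewer cells of a type and less RNA per cell cannot be told apart.

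Against CON, 2 members of the pathway had a probe set past the threshold, both in lifelong restriction. The sodium-dependent uptake transporter Slc10a1 rose 1.33-fold by its brightest probe set, and the bile acid coenzyme A ligase Slc27a5 rose 1.38-fold. The second tested probe set of Slc10a1 differed by 0.11 (limma adjusted p = 0.466) and did not pass. No probe set of Cyp7a1, Cyp8b1, Cyp7b1, Baat, Nr0b2 or Nr1h4 passed the threshold in any comparison with CON. In LTCR against CON, 2 of 10 member probe sets passed, both higher, where 19.3% of all tested probe sets passed and 7.53% passed as higher. The arrays of LTCR and CON did not overlap for the same 2 probe sets, and for 21.2% of all tested probe sets. The members' share was therefore close to that of the whole array. Of the 70 member tests against CON, 8 had an unadjusted p under 0.05 and 2 passed after adjustment. The other 62 had log2 differences between -0.68 and 0.56, with limma adjusted p between 0.221 and 0.996. All 7 comparisons share the CON arrays.

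**Figure D1:**
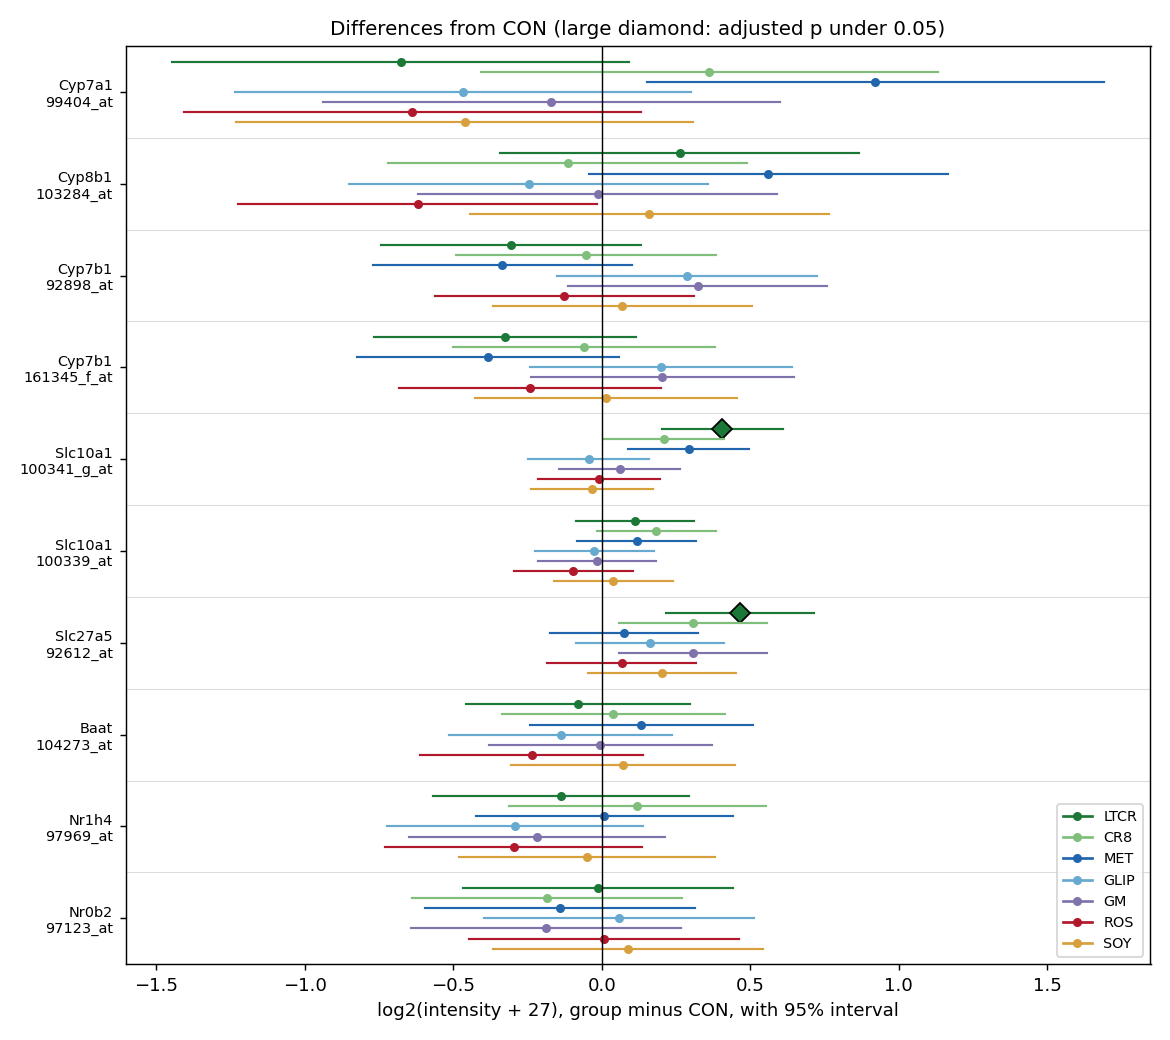
Log2 differences from CON (x axis, with 95% intervals) for the 10 tested member probe sets in each of the 7 groups. The 2 that passed the threshold are both in LTCR, Slc10a1 at 0.41 and Slc27a5 at 0.47, and the widest intervals belong to Cyp7a1.

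Cyp7a1, cholesterol 7-alpha-hydroxylase, is the rate-limiting enzyme of the classical pathway. It had the largest standard error of the members. Its mean level was highest in metformin-fed mice and lowest in lifelong restricted mice, only 0.04 below ROS on the log2 scale. Its intensity was 408.0, 753.8, 441.1 and 770.1 in LTCR, and 1565.7, 1381.1, 1092.9 and 873.6 in CR8. It was 2069.4, 3178.7, 993.3 and 1530.2 in MET, and 597.6, 1022.9, 559.2 and 563.2 in GLIP. All 4 LTCR arrays lay below all 4 arrays of CR8 and of MET, while MET spanned the widest range of any group. In GM the values were 779.7, 681.2, 1291.1 and 661.2, and in ROS they were 1585.8, 468.4, 361.1 and 428.3. In SOY they were 343.9, 778.2, 702.9 and 1029.7, and in CON 1238.6, 662.7, 1110.1 and 807.2. ROS held 1 array far above its other 3, and every group overlapped CON. Without that array MET exceeded ROS by 2.03 on the log2 scale, more than it exceeded LTCR (1.60), so the lowest rank of LTCR depended on it.

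Relative to CON, Cyp7a1 differed by 0.92 ± 0.38 (log2, SE) in MET, with a limma adjusted p of 0.173, and by -0.68 ± 0.38 in LTCR, with a limma adjusted p of 0.221. Neither passed the threshold. The contrast of those 2 groups with each other did: Cyp7a1 averaged 593 ± 195 in LTCR and 1943 ± 934 in MET (SD, n = 4 each), a log2 difference of -1.60 ± 0.38 (SE; 95% interval -2.37 to -0.83; limma adjusted p = 0.00616). It passed under all 20 alternative settings, with limma adjusted p between 0.0018 and 0.0311. LTCR and MET have the lowest and highest mean of the 8 groups. The adjustment covers the probe sets within 1 contrast, and neither the 21 pairs of treated groups nor the choice of the extreme pair. MET was also higher than GLIP by 1.39 (limma adjusted p = 0.0347), than ROS by 1.56 (limma adjusted p = 0.0187) and than SOY by 1.38 (limma adjusted p = 0.0331). These last contrasts passed in 11, 14 and 12 of 20 settings. With fits to the 2 groups alone their limma adjusted p was 0.0927, 0.142 and 0.093, and without the 5 arrays with muscle transcripts their differences were 1.39, 1.42 and 1.41 with limma adjusted p of 0.0602, 0.0889 and 0.0799. Without a brightness filter the contrasts with GLIP and SOY also fell short (limma adjusted p = 0.0537 and 0.0518). Single arrays mattered as well. MET against GLIP lost the threshold without any of MET 1, 2 and 4 or GLIP 1, 3 and 4, with log2 differences of 1.11 without MET 2 to 1.46 without MET 4. MET against ROS lost it without MET 2 (1.28) or without ROS 2, 3 or 4 (1.46, 1.34 and 1.42). MET against SOY lost it without MET 1 or 2 (1.31 and 1.11) or SOY 1, 2 or 3 (1.08, 1.46 and 1.41).

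The order of mean log2 levels of Cyp7a1 was MET, CR8, CON, GM, SOY, GLIP, ROS and LTCR from high to low, and no neighbours in this order differed past the threshold. The 2 forms of restriction stood apart in that order. LTCR against CR8 gave -1.04 ± 0.38 with a limma adjusted p of 0.0694, with no overlap between the groups. Without the 5 arrays with muscle transcripts, 2 of which are CR8 arrays, it was -0.75 with a limma adjusted p of 0.392.

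**Figure D2:**
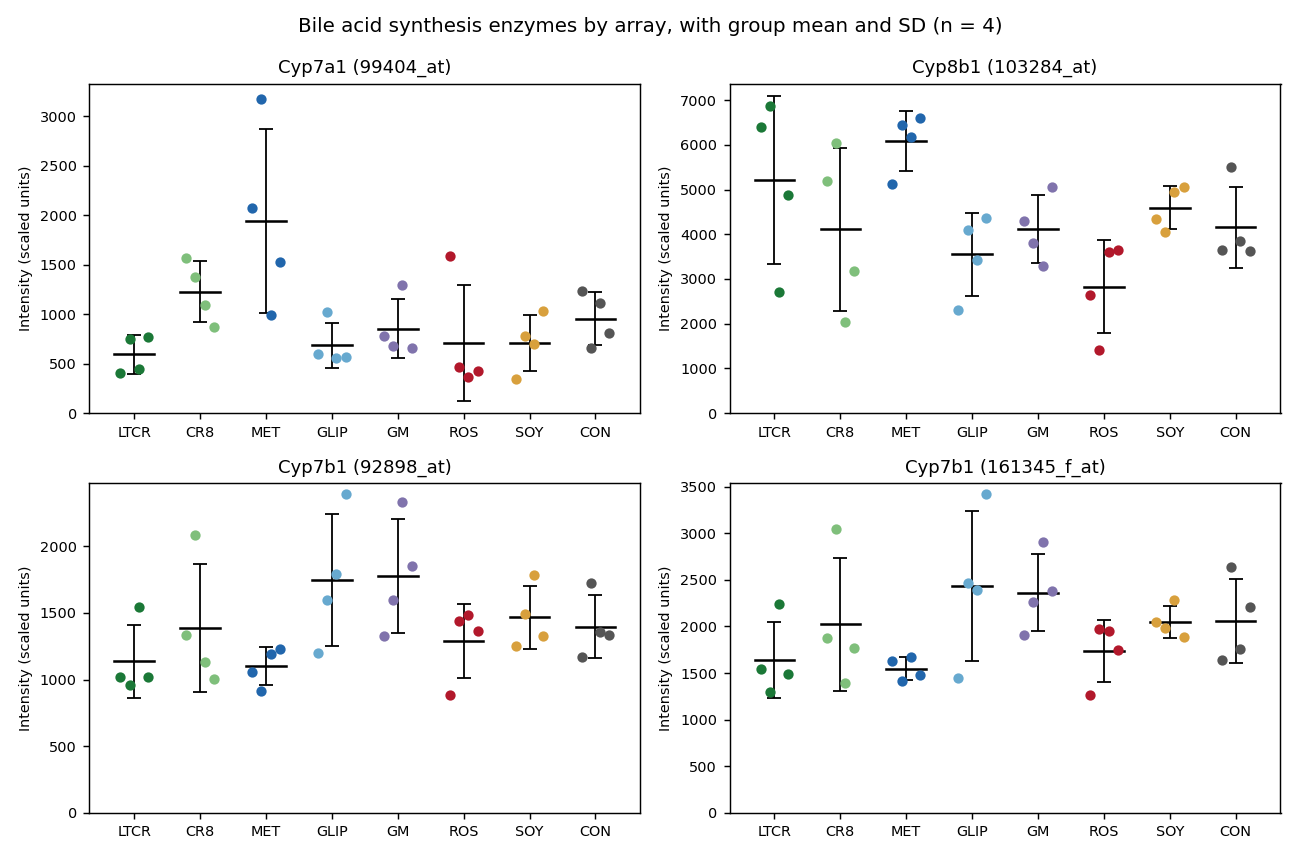
Scaled intensity (y axis) of the bile acid synthesis enzymes in every array, by group (x axis), with the group mean and SD (n = 4). For Cyp7a1 the 4 MET arrays run between 993.3 and 3178.7 and the 4 LTCR arrays between 408.0 and 770.1, without overlap.

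Cyp8b1, the sterol hydroxylase that directs synthesis to cholic acid, is a known target of repression by SHP through the receptor LRH-1 and Hnf4a. Its RefSeq promoter is shown because it carries the LRH-1 core, and those of Nr0b2 and Slc10a1 follow where these genes are described. The 250 bases before each start were searched on both strands for the nuclear receptor half-site AGGTCA, the LRH-1 core CAAGGNCA and the TATA element TATAAA, which occur in 14.0%, 5.53% and 12.4% of the 32851 promoters of the RefSeq table. Matches are in capitals, positions are in GRCm38.p6, and a match describes letters only. The Cyp8b1 promoter, chr9:121916306-121916555 on the minus strand, holds 1 LRH-1 core that begins 60 bases before the start and 1 TATA element that begins 31 bases before it.
Cyp8b1: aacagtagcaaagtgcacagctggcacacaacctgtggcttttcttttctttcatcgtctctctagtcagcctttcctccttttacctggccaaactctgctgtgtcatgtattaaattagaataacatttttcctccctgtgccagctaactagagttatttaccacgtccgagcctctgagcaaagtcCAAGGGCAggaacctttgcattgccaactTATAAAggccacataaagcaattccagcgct

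Cyp8b1 intensity was 6400.1, 6864.7, 2712.0 and 4888.9 in LTCR, and 5192.5, 6032.1, 2046.7 and 3170.6 in CR8. It was 5115.6, 6443.7, 6177.6 and 6598.7 in MET, and 2640.9, 1422.2, 3604.6 and 3655.9 in ROS. It was 3652.4, 5503.6, 3856.0 and 3620.2 in CON. MET was uniformly high, ROS was low, and both restricted groups were split, with arrays 3 and 4 below arrays 1 and 2. The higher pair in CR8, CR8 1 and CR8 2, carried skeletal muscle transcripts, and no LTCR array did. GLIP, GM and SOY averaged 3550 ± 923, 4109 ± 759 and 4598 ± 491 (SD, n = 4 each) and overlapped CON. Relative to CON the difference was 0.56 ± 0.30 in MET (limma adjusted p = 0.315) and -0.62 ± 0.30 in ROS (limma adjusted p = 0.581). MET against ROS differed by 1.18 ± 0.30 (95% interval 0.58 to 1.79; limma adjusted p = 0.0226), and the arrays did not overlap. That contrast passed in 16 of 20 settings. It lost the threshold without MET 4 (1.14), ROS 1 (1.18) or ROS 2 (0.89), and with a fit to the 2 groups alone (limma adjusted p = 0.063). LTCR was higher than ROS by 0.88 ± 0.30 (limma adjusted p = 0.0393), which passed in 12 of 20 settings. It fell short without LTCR 1, 2 or 4 (0.76, 0.72 and 0.88) and without ROS 1 or 2 (0.88 and 0.59). Under quantile normalization, without a filter and with a fit to the 2 groups alone its limma adjusted p was 0.053, 0.0619 and 0.119. Over the 32 arrays, Cyp8b1 and Cyp7a1 correlated weakly (Pearson r = 0.28, or 0.057 after group means were removed).

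Cyp7b1, the oxysterol 7-alpha-hydroxylase of the alternative pathway, had 2 probe sets that moved together (Pearson r = 0.935 over 32 arrays of the same livers). In GM against MET its difference was opposite in sign to that of Cyp7a1, and neither passed. By the first probe set its mean was 2362 ± 415 in GM and 1547 ± 122 in MET (SD, n = 4 each), and by the second 1774 ± 427 in GM and 1099 ± 143 in MET. All 4 GM arrays lay above all 4 MET arrays in both probe sets. The difference was 0.59 ± 0.22 (limma adjusted p = 0.138) and 0.66 ± 0.21 (limma adjusted p = 0.0916). The second probe set was lower in LTCR than in GM (-0.63 ± 0.21; limma adjusted p = 0.0335) and than in GLIP (-0.59; limma adjusted p just under the threshold). The first probe set passed in neither contrast. By the second probe set they passed in 13 and 7 of 19 settings. Without a filter both fell short, and LTCR against GLIP also did under quantile normalization, equal medians, no intensity trend and a fit to the 2 groups. LTCR 3, at 1546.1, was the array that reached into the GM and GLIP ranges. LTCR against GM lost the threshold without GM 3 or 4 (-0.49 and -0.60) or LTCR 1, 2 or 4 (-0.59, -0.56 and -0.59). LTCR against GLIP lost it without GLIP 2, 3 or 4 (-0.62, -0.57 and -0.43) or LTCR 1, 2 or 4 (-0.55, -0.52 and -0.55). Against CON, the 2 probe sets lay between -0.38 ± 0.22 in MET and 0.32 ± 0.21 in GM.

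The combination was also set against metformin alone. In GM against MET, 0 of 10 member probe sets passed limma's adjusted threshold, 4 had an unadjusted p under 0.05, and 2.62% of all tested probe sets passed. The arrays did not overlap for 3 member probe sets, those of Cyp7b1 and Cyp8b1, and for 8.56% of all tested. Cyp7a1 averaged 853 ± 296 in GM and 1943 ± 934 in MET (SD, n = 4 each; -1.09 ± 0.38; limma adjusted p = 0.113). Against glipizide alone, GM gave 0 member calls, 0 with an unadjusted p under 0.05 and 0 without overlap, where 0.0% of all tested probe sets passed and 5.04% did not overlap.

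Slc10a1 encodes NTCP, which takes conjugated bile acids up from portal blood across the sinusoidal membrane. Its first RefSeq start, chr12:80968706-80968955 on the minus strand, is shown because its brightest probe set passed the threshold in lifelong restriction. It holds 1 TATA element on the opposite strand, beginning 128 bases before the start, and neither of the other motifs. The table also holds a second start, chr12:80968080-80968329 on the minus strand, with 1 AGGTCA half-site that begins 87 bases before it.
Slc10a1: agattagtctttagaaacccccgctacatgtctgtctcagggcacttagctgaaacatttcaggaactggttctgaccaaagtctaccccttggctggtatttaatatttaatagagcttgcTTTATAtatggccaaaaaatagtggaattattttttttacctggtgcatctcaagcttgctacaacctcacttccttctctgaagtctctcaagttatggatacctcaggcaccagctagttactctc

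Slc10a1 intensity by its brightest probe set was 16361.9, 15587.8, 15187.6 and 15983.2 in LTCR. It was 12724.0, 12653.4, 11283.6 and 11021.0 in CON. Every LTCR array lay above every CON array, and above every array of GLIP, GM, ROS and SOY. The mean was 15780 ± 506 in LTCR and 11921 ± 894 in CON (SD, n = 4 each), a log2 difference of 0.41 ± 0.10 (SE; 95% interval 0.20 to 0.61; limma adjusted p = 0.00407). A second probe set averaged 10479 ± 470 in LTCR and 9686 ± 300 in CON, and differed by 0.11 ± 0.10 (95% interval -0.09 to 0.31; limma adjusted p = 0.466). The probe sets thus disagreed on the size of the change, although they correlated over the 32 arrays (Pearson r = 0.757). The brightest probe set and the dim, untested one are annotated to the same sequence record, and the second tested probe set to another. Which transcript each one reads was not tested. Under quantile normalization the difference of the brightest probe set was 0.24 with a limma adjusted p of 0.0824, and it passed under the other 18 of 19 settings.

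By the same probe set LTCR exceeded GLIP by 0.45 (limma adjusted p = 0.00196), SOY by 0.44 (limma adjusted p = 0.00195), ROS by 0.42 (limma adjusted p = 0.00445) and GM by 0.35 (limma adjusted p = 0.0134). The contrasts with GLIP, ROS and SOY passed under all 19 settings tried. The contrast with GM fell short with equal medians (0.24, limma adjusted p = 0.116) and without GM 2 or GM 3 (0.28 and 0.30). The second probe set differed by 0.14, 0.07, 0.21 and 0.13 in LTCR against GLIP, SOY, ROS and GM, with limma adjusted p of 0.343, 0.613, 0.153 and 0.358, so none passed. By the brightest probe set metformin and short restriction gave levels between those of LTCR and CON. By the second probe set the mean was 10479 ± 470 in LTCR, 11119 ± 1783 in CR8 and 10528 ± 756 in MET (SD, n = 4 each), so both lay above LTCR. By the brightest probe set Slc10a1 was 14010.7, 14923.7, 15271.2 and 14141.2 in MET, all above CON, with a difference of 0.29 ± 0.10 that did not pass (limma adjusted p = 0.0936). It was 15304.4, 14788.8, 11602.6 and 13629.4 in CR8, with a difference of 0.21 ± 0.10 (limma adjusted p = 0.418) that was 0.05 without the 5 arrays with muscle transcripts. The 2 highest CR8 arrays were those with muscle transcripts.

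Slc27a5 encodes the very long-chain acyl-CoA synthetase that activates bile acids, among other substrates, before conjugation. Its intensity was 12004.3, 10567.2, 10733.2 and 11385.0 in LTCR. It was 7171.4, 7579.9, 9208.9 and 8453.6 in CON. The lowest LTCR array exceeded the highest CON array. The mean was 11172 ± 657 in LTCR and 8103 ± 911 in CON (SD, n = 4 each), a log2 difference of 0.47 ± 0.12 (SE; 95% interval 0.22 to 0.72; limma adjusted p = 0.00665), which passed under all 20 settings with limma adjusted p between 0.00501 and 0.0306. CR8 arrays also all lay above CON, at 9454.4, 11237.9, 9350.6 and 9994.5, but the difference of 0.31 ± 0.12 did not pass (limma adjusted p = 0.292). GM differed from CON by 0.31 ± 0.12 (limma adjusted p = 0.175). LTCR exceeded MET by 0.39 (limma adjusted p = 0.0368) and ROS by 0.40 (limma adjusted p = 0.0234). The contrast with MET passed in 10 of 20 settings, and fell short without any of LTCR 1 to 4, or without MET 2 or MET 4, with log2 differences of 0.27 without MET 2 to 0.42 without LTCR 2. Without the arrays with muscle transcripts the contrast with MET had a limma adjusted p of 0.0519 and that with ROS was 0.36 with a limma adjusted p of 0.0816. The contrast with ROS passed in 15 of 20, and fell short without LTCR 1 or 4 (0.36 and 0.39) or ROS 3 or 4 (0.35 and 0.36).

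Baat, which joins activated bile acids to taurine or glycine, did not follow Slc27a5. It averaged 3355 ± 873 in LTCR, 3603 ± 685 in CR8, 3832 ± 624 in MET, 3150 ± 282 in GLIP, 3495 ± 660 in GM, 3015 ± 745 in ROS, 3670 ± 534 in SOY and 3488 ± 520 in CON (SD, n = 4 each). Every group overlapped CON. Its log2 differences from CON lay between -0.24 ± 0.18 in ROS and 0.13 ± 0.18 in MET.

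**Figure D3:**
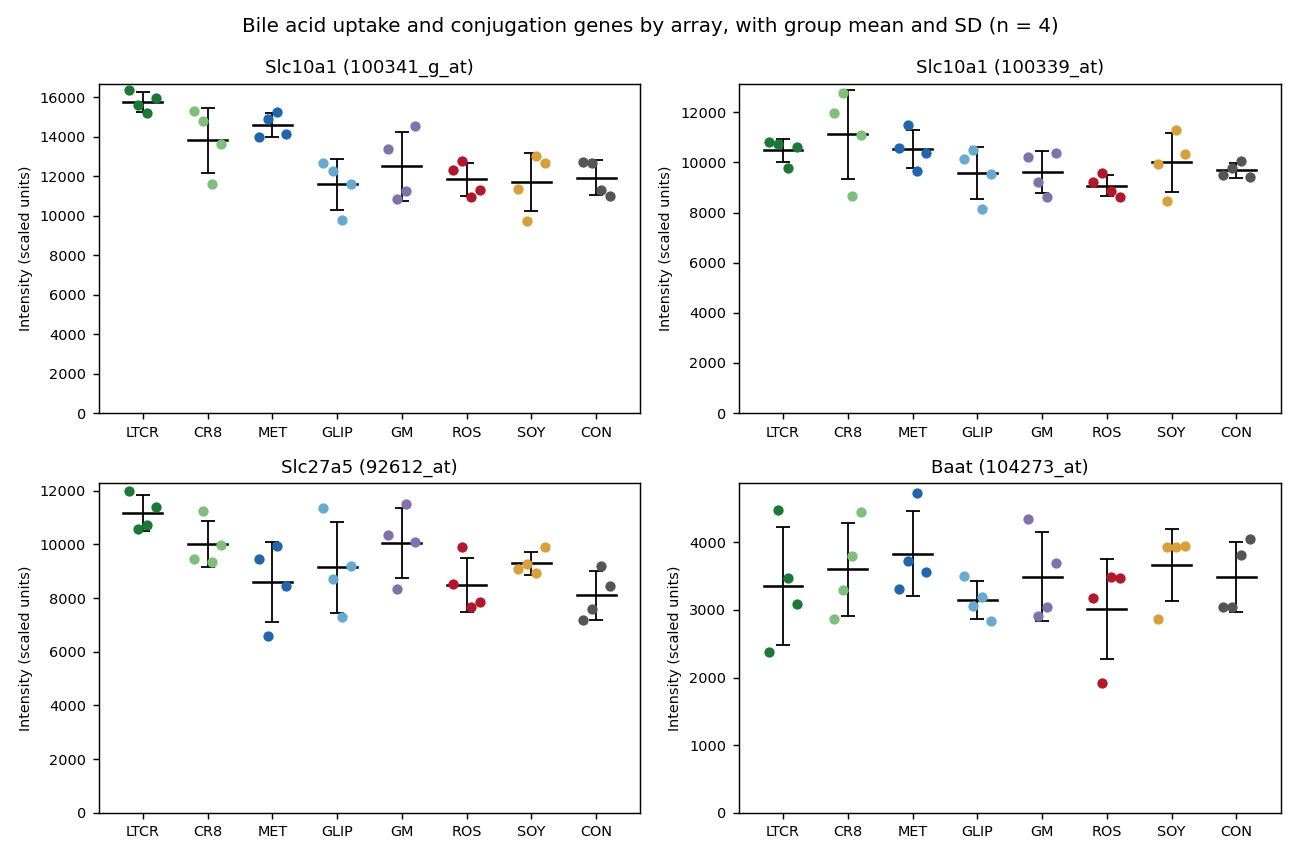
Scaled intensity (y axis) of the uptake and conjugation genes in every array, by group (x axis), with the group mean and SD (n = 4). LTCR lies above CON without overlap for the brightest probe set of Slc10a1 (upper left) and Slc27a5, and overlaps it for the second probe set of Slc10a1 (upper right) and Baat.

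Of 12 cholangiocyte markers, 7 were on the array and 3 were tested, of which 2 were higher in LTCR, where 7.53% of all tested probe sets were higher. Their summed intensity ran between 1489 and 1626 in LTCR and between 988.5 and 1234 in CON. Slc4a2 (0.44) and Aqp1 (0.64) passed. Cftr did not and ran between 87.7 and 155.0 in LTCR and between 111.7 and 169.5 in CON, and the defining markers Krt19, Krt7 and Epcam stayed below the brightness filter. Among hepatocyte markers in LTCR against CON, 4 of 9 were higher and 3 were lower, where 19.3% of all tested probe sets passed in either direction. Of 12 Kupffer cell and macrophage markers, 9 were tested, 0 were higher and 1 was lower, Mpeg1 (-1.17), and their summed intensity ran between 2594 and 4116 in LTCR and between 4553 and 5673 in CON. Of 10 stellate and fibroblast markers, 8 were tested, Col1a2 was higher (0.37) and Lum lower (-0.57). The part of these cells in the differences of Slc10a1 and Slc27a5 was not tested.

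Nr1h4 and Nr0b2, the receptor and the repressor of the feedback loop, did not pass the threshold against CON in any group. Nr0b2 encodes SHP, which lacks a DNA-binding domain and acts on LRH-1 and Hnf4a. The other member promoters searched, those of Slc10a1, Abcb11, Nr1h4 and Cyp27a1, lack the LRH-1 core. Those of Abcb11 and Nr1h4 hold 1 AGGTCA half-site each, and that of Cyp27a1 holds none of the motifs. The Nr0b2 promoter, chr4:133553126-133553375 on the plus strand, is set beside that of Cyp8b1 above because it too holds 1 LRH-1 core. The core begins 201 bases before the start, and 1 TATA element begins 28 bases before it.
Nr0b2: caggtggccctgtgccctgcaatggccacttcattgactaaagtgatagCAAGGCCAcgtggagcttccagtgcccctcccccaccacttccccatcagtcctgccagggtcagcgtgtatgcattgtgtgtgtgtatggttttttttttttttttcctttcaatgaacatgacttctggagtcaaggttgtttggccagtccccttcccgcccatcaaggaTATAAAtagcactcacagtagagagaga

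Nr0b2 intensity was 1280.5, 1489.9, 871.4 and 695.5 in LTCR, and 963.6, 1255.1, 863.6 and 1150.5 in CON. Its group means ran between 928 ± 141 in CR8 and 1136 ± 250 in SOY, with 1058 ± 177 in CON (SD, n = 4 each). Every group overlapped CON, and LTCR held both a high and a low pair of arrays. The log2 differences from CON lay between -0.19 ± 0.22 in GM and 0.09 ± 0.22 in SOY, so 95% intervals reached -0.64 and 0.54. Nr1h4 means ran between 1220 ± 267 in GLIP and 1617 ± 277 in CR8, with 1477 ± 164 in CON, and its differences between -0.30 ± 0.21 in ROS and 0.12 ± 0.21 in CR8. These intervals do not show that either gene was unaffected. Over the 32 arrays, Nr0b2 correlated with Cyp7a1 at Pearson r = -0.305 (Spearman rho = -0.355, or r = -0.225 after group means were removed) and with Nr1h4 at r = 0.076. These are weak values from arrays that share their scaling and their groups.

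**Figure D4:**
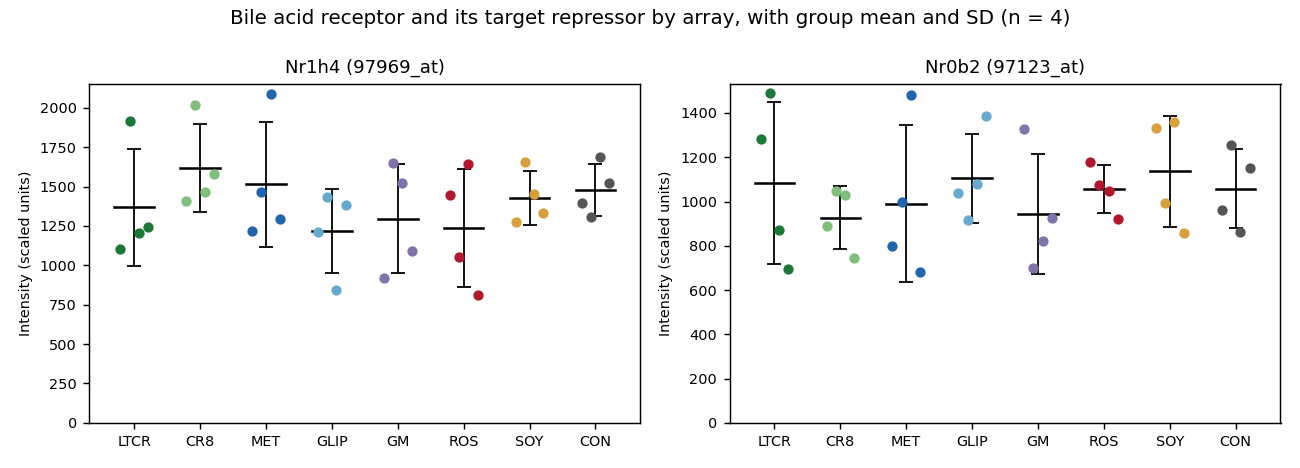
Scaled intensity (y axis) of Nr1h4 and Nr0b2 in every array, by group (x axis), with the group mean and SD (n = 4). Every group overlaps CON for both genes.

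In CR8, MET, GLIP, GM, ROS and SOY against CON, 0 of 10 member probe sets passed limma's adjusted threshold, with 2, 2, 0, 1, 1 and 0 at an unadjusted p under 0.05. Of all tested probe sets, 0.544%, 4.17%, 0.136%, 1.55%, 0.136% and 0.0% passed in these comparisons. The arrays did not overlap for 1 member probe set in CR8 (Slc27a5; 7.2% of all tested) and for 0 in GLIP, GM, ROS and SOY (5.44%, 10.5%, 4.85% and 5.36%). In MET they did not overlap for 1, the brightest probe set of Slc10a1, and for 739 of all 7357 tested. In LTCR against CR8, 0 of 10 passed limma's threshold, 1 had an unadjusted p under 0.05 and 1, Cyp7a1, did not overlap, where 12.0% of all tested passed and 16.1% did not overlap.

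Among the 21 pairs of treated groups, 14 of 210 member tests passed, or 6.67%, beside 6.21% of the tests of all probe sets in those pairs. The 14 fell in 8 pairs, each of which includes LTCR or MET. Of all tested probe sets, 10.4% passed in LTCR against MET, 19.1% in LTCR against GLIP, 22.5% in LTCR against GM, 16.3% in LTCR against ROS and 24.5% in LTCR against SOY. The shares were 3.82% in MET against GLIP, 3.72% in MET against ROS and 4.31% in MET against SOY. In these last 3 pairs 1, 2 and 1 of 10 member probe sets passed, all of them Cyp7a1 or Cyp8b1 and all higher in MET. The pairs share arrays, so their calls are not separate evidence, and p-values were adjusted within each pair, not across pairs.

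Other genes of the pathway gave a mixed picture in LTCR against CON. Of 15 tested further enzymes of bile acid metabolism, 0 were higher and 2 lower, with a median log2 difference of -0.167 beside 0.004 for all probe sets. Ephx1, the microsomal epoxide hydrolase, fell by 0.92 on the log2 scale (limma adjusted p = 0.000117), and Akr1c6, a hydroxysteroid dehydrogenase, differed by -0.25 (limma adjusted p = 0.0303) but passed in 10 of 20 settings and not without the arrays with muscle transcripts (limma adjusted p = 0.0849). Of 8 further transporters, 0 were higher and 1 lower, the efflux pump Abcg2 (-0.76; limma adjusted p = 0.00256), and the list median was -0.044.

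Of 21 tested regulators of bile acid genes, 3 were higher and 2 lower in LTCR, with a median of 0.23. Hnf4a, a nuclear receptor that activates Cyp7a1, Cyp8b1 and other liver genes, rose by 0.98 (limma adjusted p = 0.000271). The hepatocyte factor Cebpa rose by 0.39 (limma adjusted p = 0.00596), but gave 0.25 with a limma adjusted p of 0.0699 under quantile normalization. Rxra, the heterodimer partner of FXR, rose by 0.39 (limma adjusted p = 0.0085) by 1 probe set, while its other probe set gave 0.27 (limma adjusted p = 0.213), and without CON 3 the first gave 0.28 with a limma adjusted p of 0.0582 (0.0501 without all 5 arrays with muscle transcripts). Dbp, a clock output factor known in the rat to activate Cyp7a1, fell by 1.17 on the log2 scale (limma adjusted p = 5.4e-08), and the clock repressor Bhlhe40 fell by 0.58 (limma adjusted p = 0.00793). Of 9 cholesterol supply genes, 2 were higher and 1 lower in LTCR, with a median of 0.138. The HDL receptor Scarb1 (0.52) and the cholesterol-esterifying enzyme Lcat (0.74) rose, and the cholesterol exporter Abca1 fell (-0.64), although its second probe set gave -0.18 with a limma adjusted p of 0.462.

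In MET against CON, 2 of 21 regulators were higher and 0 lower, Cebpa (0.47; limma adjusted p = 0.00781) and Rxra (0.41; limma adjusted p = 0.0256). Of 9 cholesterol supply genes, the lysosomal lipase Lipa was higher (0.56; limma adjusted p = 0.0404) and Abca1 lower (-0.60; limma adjusted p = 0.00395). The second probe set of Abca1 gave -0.02 in MET, and that of Rxra gave 0.20 (limma adjusted p = 0.497). With a fit to the 2 groups alone none of these genes passed. Cebpa, Rxra, Lipa and Abca1 then had limma adjusted p of 0.0654, 0.135, 0.0916 and 0.0577. Rxra passed in 14 and Lipa in 10 of 20 settings. Neither of the other lists had a call in MET. Rxra in MET was 0.30, and Lipa 0.48, without the array CON 3, which carries muscle transcripts, and neither then passed. In CR8, GLIP, GM, ROS and SOY against CON, 0 genes of the 4 lists passed.

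**Figure D5:**
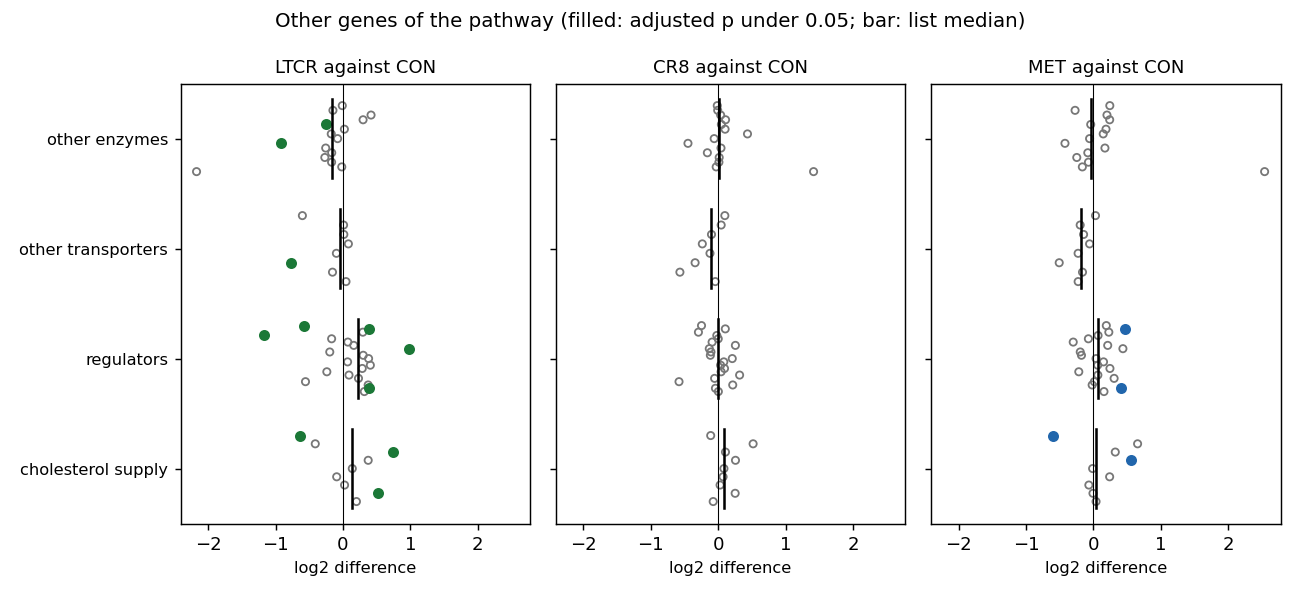
Log2 differences from CON (x axis) of the other genes of the pathway, by list (y axis), in LTCR, CR8 and MET. Filled points passed the threshold, and the vertical bar is the list median, -0.167 for other enzymes and 0.23 for regulators in LTCR.

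LTCR and CR8 differed in the duration of restriction and in the age at its start (5 and 20 months), which cannot be told apart here. In addition, 2 CR8 arrays and no LTCR array carried muscle transcripts. Of 15 further enzymes, 0 were higher and 3 lower in LTCR: Ephx1 (-0.47), Akr1c6 (-0.29) and Sult2a2 (-3.59), a sulfotransferase for hydroxysteroids. Of 21 regulators, 2 were higher, Hnf4a (1.11) and Rxra (0.43), and 1 lower, Dbp (-1.15). Of 9 cholesterol supply genes, Lcat (0.64) and the sterol carrier Stard3 (0.27) were higher, and the cholesterol synthesis enzyme Hmgcs1 (-0.93) and Abca1 (-0.53) were lower. Without the 5 arrays with muscle transcripts, Ephx1 (-0.60), Akr1c6 (-0.29) and Stard3 (0.20) did not pass, and Ephx1 passed in 9 of 20 settings overall. Sult2a2 was -2.87 without CR8 3 and did not pass. Hmgcs1 passed in 17 of 20 settings, and was -0.60 without CR8 3. The second probe sets of Stard3 (0.13) and Abca1 (-0.06) did not pass. In GM against MET, Abca1 was higher (0.53; limma adjusted p = 0.0088) and the efflux pump Abcb1a lower (limma adjusted p = 0.039), although Abcb1a passed in 7 of 19 settings, had a limma adjusted p of 0.051 without the arrays with muscle transcripts, and the second probe set of Abca1 gave -0.12.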

How the data were processed

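Liver RNA of 32 mice was measured on single-colour Affymetrix arrays. The deposited values are linear intensities, 1 per probe set and array, which the authors had already scaled: the mean of each column without its top and bottom 2% lay between 500.38 and 500.47. Software, detection calls and batches are not given in the sources used here. The number of arrays limits the precision. Of 12422 probe sets that are not controls, 10833 have 1 symbol, 396 several and 1193 none, and only the first were named.

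From these, log2(intensity + 27) was fitted with limma 3.58.1 under R 4.3.3, using lmFit and a trended eBayes, over the 8 groups, with no covariate. The value 27 is the 20th percentile of all intensities. Probe sets with a mean above the 40th percentile (94.2) were tested, 7357 in all. On simulated data of 7357 probe sets the fit recovered 50% of changes of 0.5 and 85% of changes of 1 on the log2 scale. The changes were a fixed number placed in LTCR alone, with independent normal noise. These shares are therefore not the recovery in the real comparisons, where the number of calls varied widely. Labels give 4 mice a group but not cages or litters.

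The members, the related lists and the tests were chosen with earlier results of these data known. Every member probe set is described. From a related list the text names genes past the threshold, up to 6 a comparison, by their brightest probe set. Motifs were read from a RefSeq promoter table, which held 7 promoters for 6 members. Alternatives were quantile normalization, equal medians, other added values and filters, plain probe sets alone, no intensity trend, fits to 2 groups, leaving out the muscle arrays or each array, and the replicate number as a block.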

Additional observations from a re-analysis of the deposited data

Results flagged for a closer look

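In 6 of the 88 member groups checked, 1 array stood apart from the other 3: its gap to the nearest array, divided by the group's range, exceeded the 95% critical value of Dixon's test. Chance gives about 1 in 20 such groups. For Cyp7a1 these were GLIP 2 at 1022.9 (ratio 0.917) and ROS 1 at 1585.8 (0.912), both the highest of their group. For Cyp8b1 it was CON 2 at 5503.6 (0.875), the highest. For the second probe set of Cyp7b1 it was LTCR 3 at 1546.1 (0.897), the highest. For Nr1h4 it was LTCR 2 at 1914.7 (0.83), the highest, and for Baat SOY 1 at 2869.5 (0.985), the lowest. Without ROS 1 the Cyp7a1 difference of MET against ROS was 2.03, beside 1.56 with it. None of these arrays is among those with muscle transcripts.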

How the results depend on the processing

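Alternatives were run for 27 member differences, those with an unadjusted p under 0.05 in the 10 comparisons or a call among treated pairs, and for 27 differences of related genes, and none of these reversed its sign. Of 528 member reruns, 453 stayed on the same side of the threshold, 72 fell short of it and 3 newly passed it, and of 539 reruns for related genes 466 stayed and 73 fell short. Member calls in LTCR against CON went to 1 under quantile normalization and to 1 with plain probe sets alone, beside 2. They became 1, beside 0, in GM against CON (Slc27a5) and in GM against MET (Cyp7b1) with equal medians, and in LTCR against CR8 (Cyp7a1) with a fit to those groups alone. Calls among treated pairs were 14, against 8 without a filter, 9 without the muscle arrays and 9 with fits to 2 groups. With 1 array left out they ran between 9 and 18, and member calls stayed at 2 in LTCR against CON and 0 in the other comparisons with CON. Calls over all probe sets moved more. With fits to 2 groups they were 16 in CR8 (40 in the full fit), 33 in MET (307), 4 in GM (114), 5 in ROS (10), 488 in LTCR against CR8 (882) and 0 in GM against MET (193). Without the muscle arrays they were 95 in MET, 2 in GLIP (10), 33 in GM and 423 in LTCR against CR8. With equal medians they were 6 in GLIP, 432 in GM and 1 in GM against GLIP (0), and without a filter 6 in GLIP and 57 in GM. Equal medians gave 413 higher and 19 lower calls in GM (64 and 50 in the full fit), with the median of all probe sets at 0.087, beside -0.048, and 191 higher and 65 lower in MET (135 and 172). In GM against MET they gave 182 and 58 (96 and 97). Leaving out 1 array gave 1066 to 1523 calls in LTCR, 11 to 68 in CR8, 140 to 234 in MET, 1 to 11 in GLIP, 28 to 112 in GM, 4 to 12 in ROS, 0 to 1 in SOY, 572 to 949 in LTCR against CR8, 94 to 226 in GM against MET and 0 to 2 in GM against GLIP. Of the 32 arrays, 8 correlated best with their own replicate number (median r = -0.006 within a number and -0.001 across numbers). These values gave no sign of pairing by number, but cannot exclude it for some arrays, as batches are not given. With the replicate block GLIP gave 4 calls, beside 5 without the intensity trend, while the member calls against CON stayed at 2 in LTCR. The cause of these shifts was not tested.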

Other observations

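The genes whose log2 intensity followed each member most closely over the 32 arrays are given as a description; the arrays share their groups and scaling. Slc10a1 was followed by Dctpp1 (Pearson r = 0.826), Cyp2c38 (0.818) and Cyp2c39 (0.78), and by 0.575, 0.582 and 0.608 after group means were removed. Slc27a5 was followed by Rplp0 (0.745), Fah (0.743), which ends tyrosine breakdown, and the proline-metabolism gene Prodh2 (0.738). Cyp7a1 was followed by Thrsp (0.684), a regulator of lipogenesis, by Nsdhl (0.628), an enzyme of cholesterol synthesis, and by Dclre1a (0.627), values that dropped to 0.454, 0.298 and 0.247 after group means were removed. Cyp8b1 was followed by Babam2 (0.695), Fggy (0.666) and Apoa4 (0.664), an apolipoprotein. Cyp7b1 was followed by Rbbp4 (0.714), Keg1 (0.711) and Otud5 (0.676). The closest genes to Nr0b2, Nr1h4 and Baat were Fgfr2 (0.582), Asnsd1 (0.669) and Pcp2 (0.574).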
